A study of Mus musculus with 6 samples.

Results

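Oxidative phosphorylation subunits were followed in MLE-12 cells, a mouse lung epithelial cell line, after overexpression of NR4A1, an orphan nuclear receptor that acts as a transcription factor. The members were taken by gene symbol: Nduf followed by a, b, c, s or v, Sdha to Sdhd, Uqcr, Atp5, Cox4 to Cox8, and the protein genes of mitochondrial DNA (mt-Nd, mt-Cytb, mt-Co, mt-Atp). Of the 34745 rows of the gene table, 102 carried such a symbol, and 93 of these reached 10 counts in 3 or more libraries. Among the 93 kept, 80 are in the nucleus and 13 are on mitochondrial DNA. All 93 reached 10 counts in all 6 libraries. The 9 rows left out were Cox4i2, Cox6b2, Cox7b2, Cox8b, Cox8c, Ndufa4l2 and the pseudogenes Atp5k-ps2, Atp5l-ps1 and Atp5l-ps2. Nearest to the limit on the inside was Cox7a1, with 12 to 24 counts, and on the outside Cox6b2, with 2, 25 and 5 counts in the NR4A1 libraries and 4, 0 and 0 in the vector libraries.

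Cells of the NR4A1 group were transfected with pCMV-SPORT6-NR4A1, a plasmid with the mouse Nr4a1 reading frame behind a cytomegalovirus promoter, and the vector group received empty pCMV-SPORT6, with 3 libraries in each group. Transfection was transient, by lipid carrier, so a culture can mix cells with and without plasmid. MLE-12 was derived from lung tumours of mice that express simian virus large T antigen in surfactant protein C-producing cells, and both groups share this background. The design asks how the lung epithelial transcriptome differs when NR4A1 is raised, and here that question is put to the respiratory chain.

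The respiratory chain and ATP synthase sit in the inner mitochondrial membrane. Complex I (NADH dehydrogenase) and complex II (succinate dehydrogenase) pass electrons to ubiquinone, complex III (cytochrome bc1) passes them to cytochrome c, and complex IV (cytochrome c oxidase) passes them to oxygen. Complexes I, III and IV pump protons, and complex V (ATP synthase) uses the gradient to make ATP. Complex II is built from nuclear genes alone, whereas the other complexes combine nuclear subunits with core subunits from mitochondrial DNA. Mitochondrial genes are copied as long transcripts of a whole strand and then cut apart into single messages.

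Total counts lay between 15019038 and 17574340 per library, and 3 counts, taken as the smallest amount a library can show, equal 0.171 to 0.200 CPM before any scaling factor. Nr4a1 was counted 50660, 60093 and 68555 times in the NR4A1 libraries and 428, 510 and 463 times in the vector libraries. NR4A1 replicate 2 stood apart on the first principal component of log2 CPM (counts relative to the library size scaled by edgeR's TMM factors, the scale of every CPM here), with a score of 50.7 against -16.5 to -0.933 in the other libraries. In this library the summed level of 9 muscle markers was 324.3 CPM against 7.03 to 10.2 CPM elsewhere, and that of 7 endothelial markers was 114.9 against 7.82 to 9.71 CPM. Of 8 fibroblast markers Dcn was high in every library (878.4 to 1031 CPM), and the other 7 summed to 687.4 CPM in NR4A1 replicate 2, 56.7 CPM in vector replicate 1 and 10.6 to 18.6 CPM elsewhere. Of the muscle markers, Myh7, Actc1 and Ckm were at or under 3 counts in every library, while Tnnt2 had 5.43 to 7.47 CPM throughout. Smooth muscle actin Acta2 reached 228.8 CPM in NR4A1 replicate 2. Sums of 6 immune markers (1.91 to 4.59 CPM) and 3 erythroid markers (0.203 to 0.597 CPM) were near 0 throughout. Of the lung epithelial markers, Krt8, Krt19, Nkx2-1, Abca3, Sftpb, Sftpc and Cdh1 were present, while Epcam, Lamp3 and Sftpd stayed under 1.4 CPM in every library. Napsa was low at 0.87 to 2.08 CPM. Krt18 had 9.77 CPM in NR4A1 replicate 2 and 0.11 to 1.22 CPM elsewhere. The summed level of all 12 lung epithelial markers was 883.7, 1009 and 975.6 CPM with NR4A1 and 1011, 1133 and 1090 CPM with vector. It was lower in every NR4A1 library, and its part in the results was not tested. Krt19 (398.0 to 569.9 CPM) and Krt8 (187.1 to 226.5 CPM) made up most of this sum. By log2 fold change Krt8, Krt19, Cdh1, Nkx2-1, Sftpb and Abca3 (-0.03) were below 0, and Sftpc (0.08), Napsa (0.47) and Krt18 (2.62) were above 0. The nuclear and mitochondrial medians and some genes below are therefore also given without NR4A1 replicate 2. Other estimates are given with all libraries and can depend on it. In bulk RNA fewer cells of a type and less RNA per cell cannot be told apart.

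In FPKM (counts scaled by library total and a fixed gene length), 12 of the 13 mitochondrially encoded subunits stood above every nuclear one, and mt-Nd6 lay inside the nuclear range. These gene lengths ran from 312 to 11130 bases over the 80 nuclear members and from 204 to 1824 over the 13 mitochondrial ones. A rank by FPKM therefore depends on the gene length as well as on the counts. FPKM averaged over the 6 libraries had a median of 38.9 over the 77 nuclear subunits. In complex IV the nuclear subunits had a median of 91.2 FPKM, in complex III 52.6, in complex V 41.8, in complex II 39.3 and in complex I 22.9. The highest nuclear levels were those of Cox8a at 467.6 FPKM and Cox6b1 at 427.4 FPKM, both small subunits of cytochrome c oxidase. Atp5b, the catalytic beta subunit of ATP synthase, led complex V at 197.7 FPKM. Ndufa6 led complex I at 183.5 FPKM, Sdhd, a membrane anchor, led complex II at 161.8 FPKM, and Uqcrfs1, the Rieske iron-sulfur protein, led complex III at 104.3 FPKM. At the other end, Ndufb4 had 2.13 FPKM, Sdhc 24.7, Uqcrc1 25.3, Cox7c 1.60 and Atp5g1 1.85.

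Among the mitochondrial genes, mt-Co1, the catalytic subunit of complex IV, was highest at 15255 ± 590 FPKM with NR4A1 and 14330 ± 729 FPKM with vector (SD, n = 3 each). By mean over all libraries it was followed by mt-Atp8 (10980 FPKM), mt-Atp6 (9728 FPKM), mt-Co2 (7844 FPKM), mt-Co3 (5844 FPKM), mt-Cytb (5407 FPKM) and mt-Nd4l (4136 FPKM). The other complex I genes were lower, from mt-Nd4 at 3322 FPKM through mt-Nd1 at 2588, mt-Nd2 at 1855 and mt-Nd5 at 1830 to mt-Nd3 at 602.2. The lowest was mt-Nd6 at 127.4 FPKM, the single member on the strand opposite to the other 12. On the mitochondrial chromosome (GRCm38) mt-Atp8 and mt-Atp6 overlap from 7927 to 7969, mt-Nd4l and mt-Nd4 from 10167 to 10173, and mt-Nd5 and mt-Nd6 from 13552 to 13565 on opposite strands, so reads there can be given to either gene.

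**Figure D1:**
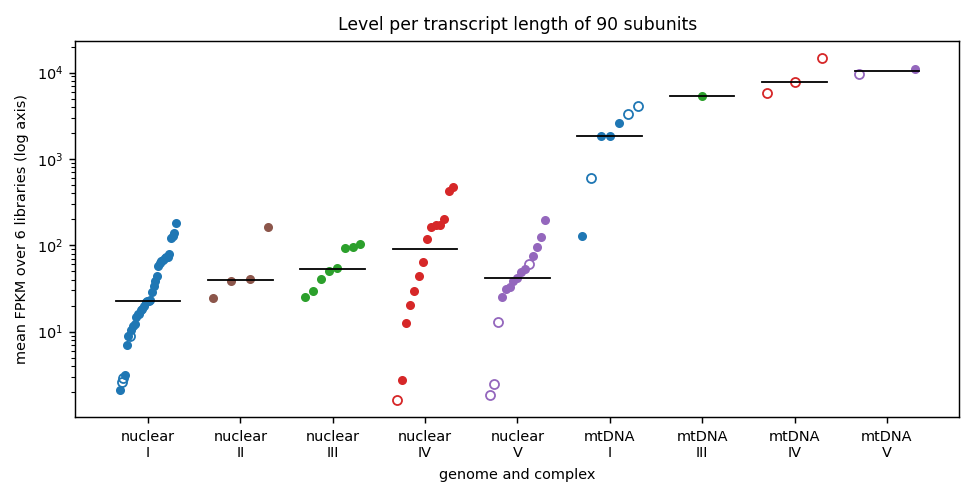
Mean FPKM over the 6 libraries (log axis) of 90 subunits, by genome (nuclear, or mtDNA for mitochondrial DNA) and complex. Each point is a gene, black lines are medians, and open circles are genes that share 50% or more of their 50-base stretches with other annotated genes. The nuclear median is 38.9 FPKM, 12 mitochondrial genes lie above every nuclear one, mt-Nd6 (127.4 FPKM) lies among the nuclear genes, and several open circles lie at the bottom of the nuclear range.

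Low nuclear levels in FPKM went with sequence shared with other genes, taking for each gene the transcript that shares most. Among the 8 nuclear subunits with 50% or more of their 50-base stretches found in other genes of GENCODE M21, the median was 2.76 FPKM. It was 44.8 FPKM over the 30 subunits with some but less sharing and 41.8 FPKM over the 39 with none. The 8 were Atp5g2 (100% of stretches shared), Ndufab1 (82.9%), Atp5l (68.5%), Atp5h (66.6%), Atp5g1 (66.0%), Ndufa12 (53.8%), Cox7c (53.0%) and Ndufs5 (50.2%). Atp5h was the exception in level, at 61.0 FPKM. Gene length enters these levels too. Ndufab1 had 19.9 to 31.5 CPM but 2.88 FPKM, and Atp5g1 had 15.6 to 21.4 CPM but 1.85 FPKM. The part of length in the low levels was not tested. Rows of the copies held counts of their own. BC002163 was counted 436 to 606 times per library, while Ndufs5, with which it shares 50.2% of stretches, was counted 43 to 73 times. Gm10250, which shares 66.6% with Atp5h, was counted 2311 to 3159 times, and Atp5h 2062 to 2655 times. How much of each count comes from the subunit was not tested, and levels of these genes are uncertain.

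RefSeq start sites (GRCm38.p6, 250 bases before and 50 after each start) were matched for 65 of the 77 nuclear subunits, and 5 motifs were searched by their letters on both strands. AAAGGTCA, the element bound by NR4A1 as a monomer, was in 0 of the 65 promoters, beside 1.70% of the 27025 genes with a promoter. TCAAGGTCA, the element of the estrogen-related receptors, which differs from it in the letters before the shared AAGGTCA, was in 2 (3.08%, beside 0.466%). GCATGCGC, the core of the NRF1 element, was in 10 (15.4%, beside 3.05%), and AAGATGGC, the YY1 element, was in 10 (15.4%, beside 3.19%). CCGGAAGT, the element of ETS factors such as GABP, was in 5 (7.69%, beside 4.31%). A match of letters is not evidence of binding. A missing match is not evidence against it either, because the search passes over variants of these letters and regions outside the windows. The windows below show both matches to the receptor element and one example for each of the others, 5′ to 3′ on the gene's strand with the match in capitals (a match on the opposite strand reads as its reverse complement), positions being counted from 0 at the first transcribed base.
Atp5g3, chr2:73911360-73911389, minus strand, match from -52: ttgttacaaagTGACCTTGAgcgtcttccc
Sdhd, chr9:50603800-50603829, minus strand, match from 36: tttccgggttgtagagTGACCTTGAgccct
Ndufa6, chr15:82354356-82354385, minus strand, match from -83: tccgcggtagaGCATGCGCattgcagagcc
Uqcr11, chr10:80406869-80406898, minus strand, match from -66: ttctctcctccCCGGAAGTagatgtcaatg
Atp5j, chr16:84835046-84835075, minus strand, match from -88: aaagtgtaggaAAGATGGCggagtcttagc
Neither gene with the receptor element differed between the groups beyond its error. The log2 fold change was -0.003 for Atp5g3, a proteolipid ring subunit of ATP synthase (standard error 0.0964), and -0.053 for Sdhd (standard error 0.0996).

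None of the 93 members passed an adjusted p of 0.05 in edgeR's quasi-likelihood test with Benjamini-Hochberg adjustment over 12941 genes, while 31 of all genes tested did (0.24%, or 0.17% with a change of at least 2-fold as well). The lowest adjusted p of a member was 0.688. DESeq2 called 0 members as well, beside 1.13% of all genes. At an unadjusted p under 0.05, 1 member was higher with NR4A1 (mt-Nd3) and 1 was lower (Cox6a2), beside 4.02% of all genes higher and 2.44% lower. With the replicate number as a block 4 members were higher and 2 lower at that level, beside 5.36% and 3.96% of all genes in the same fit. The CPM of the groups did not overlap for 5 members that were higher, all mitochondrial, and for 2 that were lower, Cox6a2 and Ndufs1, beside 6.69% and 6.22% of all genes. For 81 of the 93 members (87.1%) the whole 95% confidence interval of the log2 fold change lay between -0.5 and 0.5, that is within 1.41-fold, as it did for 60.9% of all genes tested. For 92 members it lay within 2-fold, Cox6a2 being the exception.

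**Figure D2:**
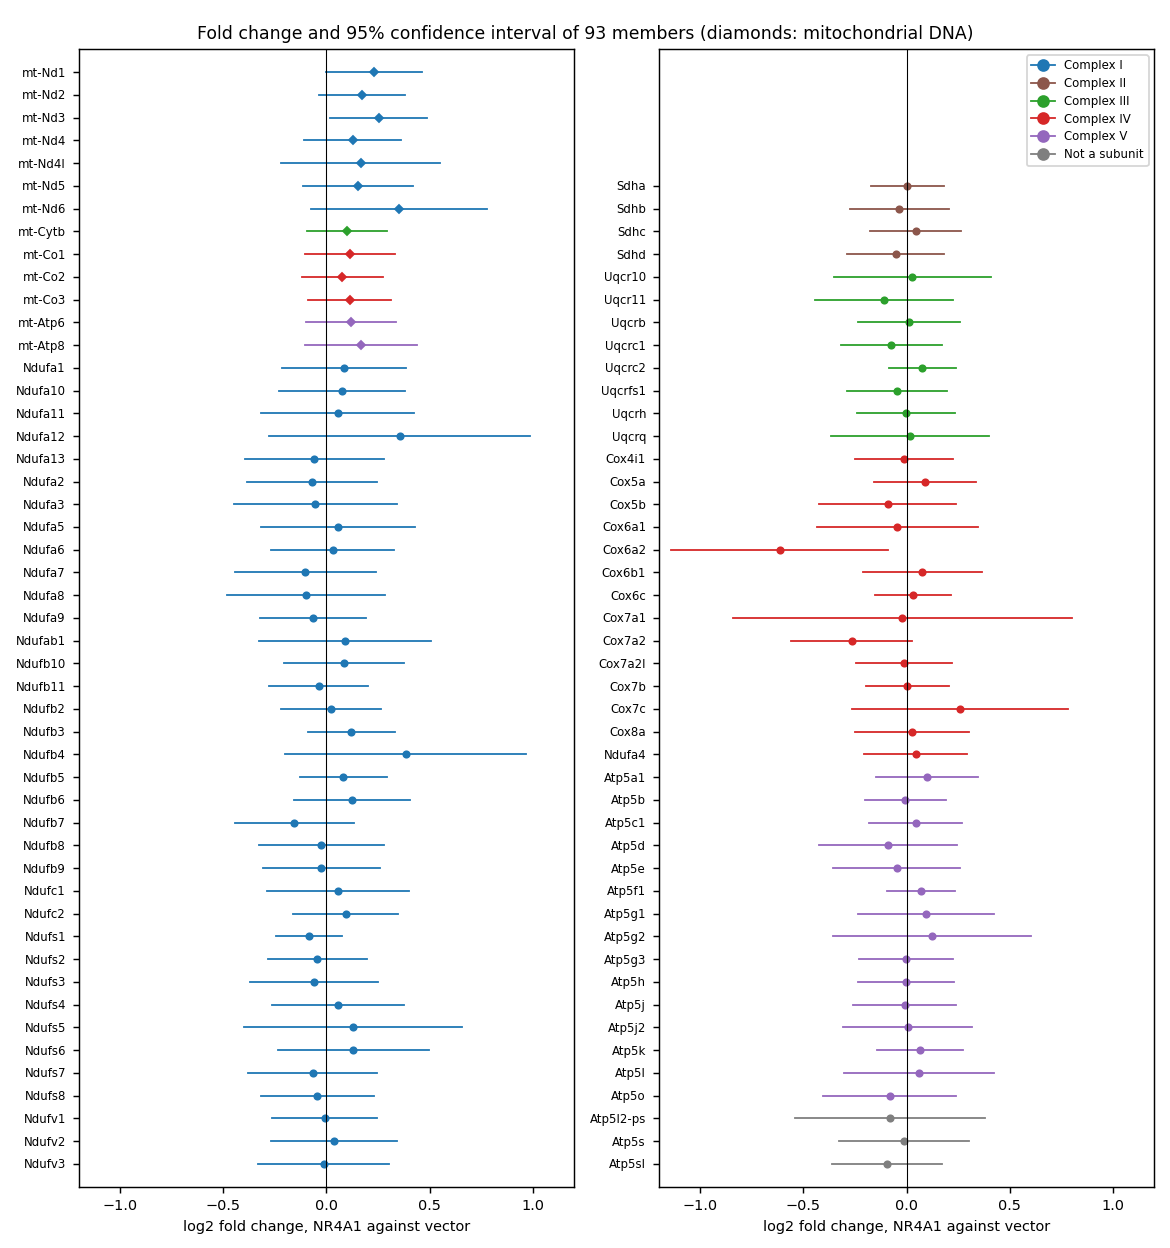
Log2 fold change of NR4A1 against vector (x axis) of the 93 members with 95% confidence intervals (lines), coloured by complex, with diamonds for mitochondrial DNA and circles for nuclear genes. The 80 nuclear members scatter around 0 with a median of 0.001, Cox6a2 lies apart at -0.61, and all 13 mitochondrial members lie above 0.

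The nuclear members were centred on 0. Their median log2 fold change was 0.001 beside 0.008 over all genes tested, with 40 above and 40 below 0. By complex the median was 0.026 over 36 subunits of complex I, -0.015 over 4 of complex II, 0.005 over 8 of complex III, -0.003 over 14 of complex IV and 0.006 over 15 of complex V. The 3 kept rows that are not subunits, the pseudogene Atp5l2-ps and the related genes Atp5s and Atp5sl, lay between -0.10 and -0.01. Leaving out each library in turn moved the nuclear median between -0.063 and 0.085, its value being 0.085 without vector replicate 2 and -0.063 without NR4A1 replicate 2.

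In complex I the widest estimates were those of Ndufb4 (0.38, standard error 0.248) and Ndufa12 (0.35, standard error 0.268), both accessory subunits. Ndufb4 had 3.04, 4.35 and 3.00 CPM with NR4A1 and 2.66, 3.10 and 2.21 CPM with vector, so that the groups overlapped. Over the 6 fits that each left out 1 library its log2 fold change lay between 0.19 and 0.51. Ndufb3, next to Ndufb4 by smallest p in this complex, lay at 0.12 (95% confidence interval -0.09 to 0.33) with overlapping groups. Ndufs1, the largest iron-sulfur subunit, had 112.0, 109.3 and 117.8 CPM with NR4A1 and 119.3, 117.9 and 122.6 CPM with vector. Every NR4A1 library was below every vector library, but the nearest values were 117.8 and 117.9 CPM and the log2 fold change was -0.09 (95% confidence interval -0.24 to 0.07). Ndufs1 is also 1 of 23 nuclear members that overlap another row of the table, here Eef1b2 and Ino80dos on the other strand. The 4 subunits of succinate dehydrogenase lay between -0.05 (Sdhd) and 0.04 (Sdhc). Sdha, the flavoprotein, had 194.4, 221.6 and 217.0 CPM with NR4A1 and 212.4, 211.3 and 207.5 CPM with vector, a log2 fold change of 0.005 with an interval from -0.17 to 0.18. In complex III the values ran from -0.11 for Uqcr11 to 0.08 for Uqcrc2, a core protein. In complex V, Atp5b had 1289, 1470 and 1338 CPM with NR4A1 and 1327, 1442 and 1347 CPM with vector. The groups overlapped, with a log2 fold change of -0.007 and an interval from -0.20 to 0.19. Atp5a1, the alpha subunit, lay at 0.10 (-0.15 to 0.35) and Atp5f1, the peripheral stalk subunit b, at 0.07 (-0.10 to 0.24).

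Complex IV held the member with the smallest p. Cox6a2, the heart and skeletal muscle form of subunit VIa (ENSMUSG00000030785), lies on chromosome 7 between 128205435 and 128206387 of GRCm38. It had 71, 116 and 145 counts with NR4A1 and 195, 175 and 160 with vector. As CPM these were 4.80, 6.91 and 8.38 against 11.3, 10.4 and 9.06, every NR4A1 library being below every vector library. On the log2 scale the fold change was -0.61 with a standard error of 0.223 and a 95% confidence interval of -1.14 to -0.09, with an unadjusted p of 0.0278 and an adjusted p of 0.688 in edgeR's quasi-likelihood test. Without NR4A1 replicate 1 it was -0.43, and over the 6 fits that each left out 1 library it lay between -0.81 and -0.43, so that its sign was kept. NR4A1 replicate 2, the library with muscle markers, had the middle value of its group, and without it the log2 fold change was -0.63. Itgad, which overlaps Cox6a2 on the other strand, had 0 counts. Cox6a1, the form found in most tissues, was counted far more often, at 188.5 to 274.2 CPM with NR4A1 against 212.6 to 287.6 CPM with vector, and had a log2 fold change of -0.04 (-0.43 to 0.34). Cox6a2 made up 4.23 to 5.54% of the summed FPKM of the pair with NR4A1 and 5.98 to 8.51% with vector.

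The other isoform families were held by the widely expressed form in both groups. Cox4i1 had a mean of 173.0 FPKM, while Cox4i2, the lung and low-oxygen form, had 1 count in all 6 libraries together. Cox8a had 467.6 FPKM, and the muscle form Cox8b and the testis form Cox8c had 0 counts in every library, which allows up to 3 counts per library. Cox6b1 had 427.4 FPKM and the testis form Cox6b2 0.126 FPKM, 25 of its 36 counts coming from NR4A1 replicate 2. Ndufa4 had 43.8 FPKM and Ndufa4l2 3 counts, all in NR4A1 replicate 2. Among the 3 genes that encode the same mature ring subunit of ATP synthase, Atp5g3 made up at least 91.4% of their summed FPKM, with Atp5g1 and Atp5g2 at 1.85 and 2.51 FPKM, both genes with 50% or more of their sequence shared. In the VIIa family the muscle form Cox7a1 had 2.75 FPKM, while Cox7a2 and Cox7a2l, a related protein that joins complexes III and IV, were nearly level at 170.1 and 161.4 FPKM.

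Cox7a2 (chromosome 9 from 79755241 to 79759853) had 127.0, 123.1 and 99.8 CPM with NR4A1 and 125.2, 157.5 and 137.5 CPM with vector. The groups overlapped through vector replicate 1 in CPM but not in FPKM, where the nearest libraries were 165.8 and 166.5, and the estimate was -0.26 on the log2 scale with a standard error of 0.124 and an adjusted p of 0.796 in edgeR's quasi-likelihood test. Cox7a2l lay at -0.01 (-0.24 to 0.22). Cox7c, at 1.60 FPKM, had the highest estimate of the complex, 0.26 with an interval from -0.26 to 0.78.

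**Figure D3:**
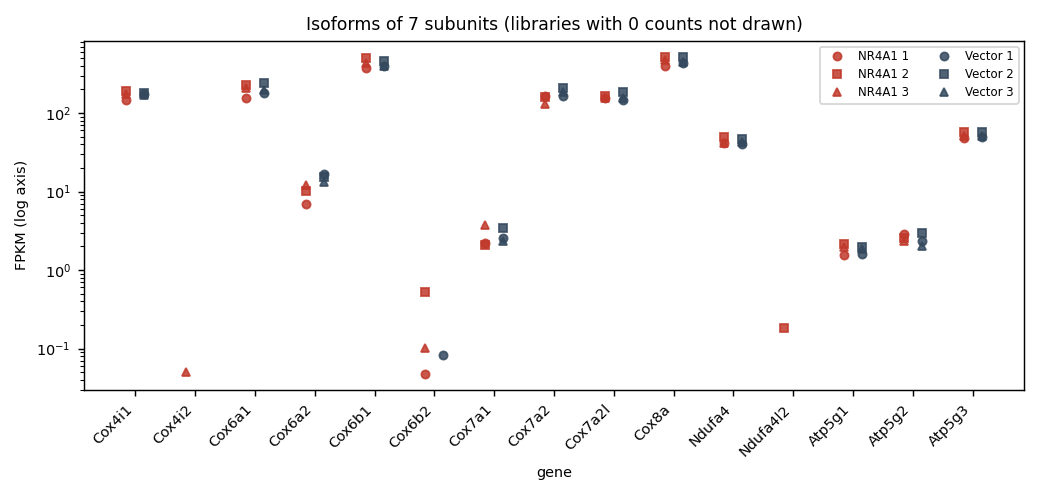
FPKM (log axis) of isoform families in each library, NR4A1 in red and vector in dark blue, with replicates 1, 2 and 3 as circles, squares and triangles. Libraries with 0 counts are not drawn, which leaves out Cox8b and Cox8c. One form of each family dominates except for Cox7a2 and Cox7a2l, and the groups do not overlap for Cox6a2 and, by a narrow gap, Cox7a2.

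The mitochondrial members all had estimates above 0. Their median log2 fold change was 0.15 beside 0.008 over all genes, with a range from 0.08 (mt-Co2) to 0.35 (mt-Nd6). They took 6.78, 6.16 and 6.20% of the counts of the NR4A1 libraries and 5.94, 6.15 and 5.76% of the vector libraries, on average 6.38 ± 0.35% against 5.95 ± 0.19% (SD, n = 3 each). The ranges did not overlap, but NR4A1 replicate 2 at 6.16% and vector replicate 2 at 6.15% were next to each other. The difference of 0.43 percentage points was 0.228 without NR4A1 replicate 1 and 0.539 without NR4A1 replicate 2. Nuclear members took 0.869, 1.05 and 0.968% against 0.927, 1.06 and 0.941%, so that there were 7.81, 5.88 and 6.40 mitochondrial counts per nuclear count with NR4A1 and 6.41, 5.78 and 6.12 with vector. The ratio overlapped between the groups and was highest in NR4A1 replicate 1.

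NR4A1 replicate 1 was also the highest library for 11 of the 13 genes. mt-Nd3, a core subunit of complex I (mitochondrial chromosome from 9459 to 9806), had 259.9, 221.7 and 203.4 CPM with NR4A1 and 193.3, 196.9 and 184.9 CPM with vector. All NR4A1 libraries were above all vector libraries, the log2 fold change being 0.25 with a 95% confidence interval of 0.02 to 0.49, an unadjusted p of 0.0391 and an adjusted p of 0.735 in edgeR's quasi-likelihood test. Without NR4A1 replicate 1 its log2 fold change was 0.15. mt-Nd1 had 3012, 2604 and 2421 CPM against 2290, 2305 and 2261 CPM, groups that did not overlap, and a log2 fold change of 0.23 (-0.002 to 0.46). mt-Nd2 had 2255, 1917 and 1958 CPM against 1837, 1798 and 1808 CPM, again without overlap, and a log2 fold change of 0.17 (-0.04 to 0.38). mt-Cytb, the core of complex III, had 6762, 6231 and 6236 CPM against 5975, 6143 and 5826 CPM, with a log2 fold change of 0.10 (-0.09 to 0.29).

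mt-Nd6, encoded on the opposite strand, had 98.0, 62.0 and 63.1 CPM with NR4A1 and 58.3, 58.3 and 58.2 CPM with vector. A single library set its estimate of 0.35 (standard error 0.180), which was 0.10 without NR4A1 replicate 1. Over the 6 fits that each left out 1 library this estimate lay between 0.10 and 0.47. mt-Nd4, mt-Nd4l and mt-Nd5 had log2 fold changes of 0.13, 0.16 and 0.15 with overlapping groups, and mt-Nd4l varied most among the vector libraries, from 954.2 to 1326 CPM. The 3 genes of complex IV were at 0.11 (mt-Co1), 0.08 (mt-Co2) and 0.11 (mt-Co3), and the ATP synthase genes were at 0.12 (mt-Atp6) and 0.17 (mt-Atp8), all with groups that overlapped. Without NR4A1 replicate 1 the median of the 13 genes was 0.07. Without NR4A1 replicate 2 it was 0.215.

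**Figure D4:**
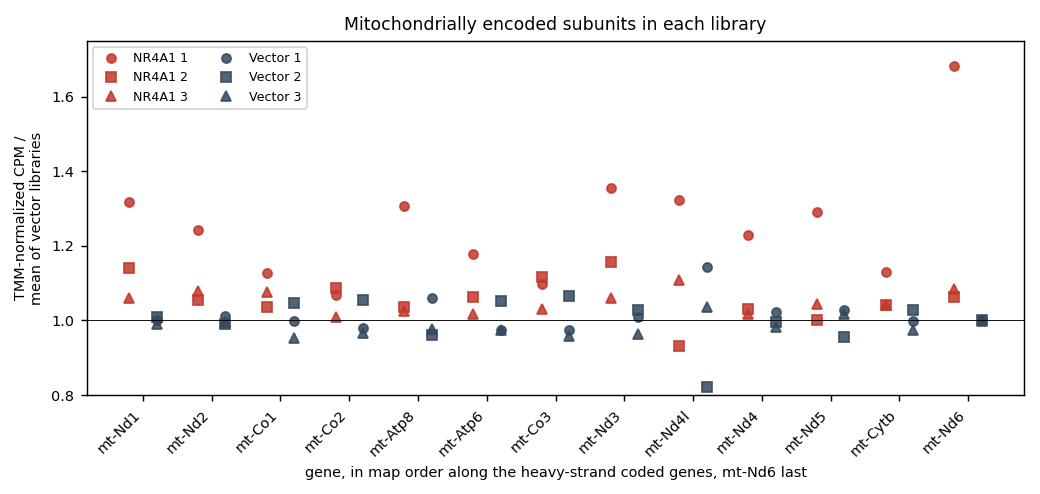
TMM-normalized CPM of each mitochondrial gene in each library, divided by the mean of its vector libraries (y axis), NR4A1 in red and vector in dark blue, with replicates 1, 2 and 3 as circles, squares and triangles. NR4A1 replicate 1 is the highest point for 11 of the 13 genes, among them mt-Nd1 (3012 CPM) and mt-Nd6 (98.0 CPM), and NR4A1 replicate 2 also lies clear of the vector libraries for mt-Nd1 (2604 against at most 2305 CPM) and mt-Nd3 (221.7 against at most 196.9 CPM).

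Other genes of similar base composition were also high in NR4A1 replicate 1. The GC content of the 13 mitochondrial genes was 31.9 to 41.1%. Over 1234 other tested genes in that range, the median of log2 CPM relative to each gene's mean was 0.22 in NR4A1 replicate 1, -0.09 in replicate 2 and 0.01 in replicate 3, against 0.02, -0.10 and -0.02 in the vector libraries. For the mitochondrial members it was 0.24, -0.003 and -0.02 against -0.07, -0.08 and -0.10. The group means of these values differed by 0.08 for the other genes and by 0.15 for the mitochondrial members. In the highest 20% of tested genes by GC content, NR4A1 replicate 1 was at -0.15. When the median of each library in 20 bins of GC content was taken out as an offset, the mitochondrial median fell from 0.15 to 0.05. In that fit mt-Nd3 stood at 0.15, mt-Nd6 at 0.23 and mt-Co2 at -0.02. This correction was chosen after the data had been seen. The part of base composition in the mitochondrial values was not tested.

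The nuclear members differed between libraries in another pattern. Their median deviation was -0.15, 0.13 and 0.001 in the NR4A1 libraries and -0.07, 0.14 and -0.06 in the vector libraries, so the libraries of each group differed far more than the group means, at -0.005 and 0.002. All 5 complexes had this pattern, with NR4A1 replicate 1 between -0.22 (complex III) and -0.09 (complex V), and NR4A1 replicate 2 between 0.10 (complex III) and 0.16 (complex I). Over 482 other genes under 1 kb in length the values were -0.12, 0.09 and -0.001 against -0.04, 0.13 and -0.05. Cytosolic ribosomal protein genes (80 genes) had nearly the same values as the nuclear members, at -0.14, 0.12 and -0.007 against -0.08, 0.18 and -0.07. The part of length and of base composition in the nuclear values was not tested.

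**Figure D5:**
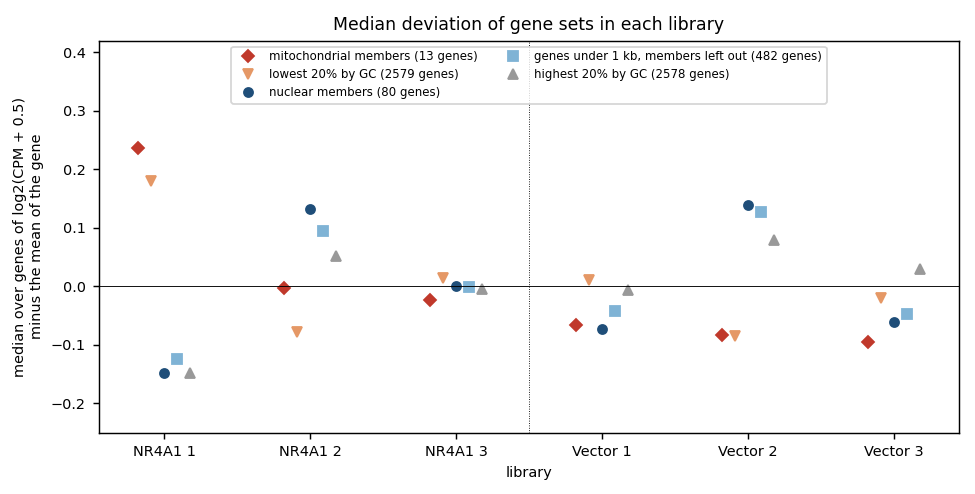
Median over a set of genes of log2(CPM + 0.5) minus the gene's own mean (y axis) in each of the 6 libraries, for the mitochondrial members, the nuclear members, the lowest and highest 20% of tested genes by GC content, and other genes under 1 kb. In NR4A1 replicate 1 the mitochondrial members (0.24) and the genes of lowest GC content (0.18) are high while the nuclear members (-0.15) and those of highest GC content (-0.15) are low.

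Nuclear copies of mitochondrial DNA also took counts. Of the 13 genes, 7 shared 50% or more of their 50-base stretches with annotated nuclear copies, mostly on chromosome 1. Of mt-Co2 99.5% was found in Gm28661, of mt-Atp6 99.5% in Gm10925, of mt-Co3 99.9% in Gm28437, of mt-Nd4l 98.8% in Gm10222 and of mt-Nd3 98.0% in Gm28438. The rows of 9 such copies together held 6.39 to 7.58% as many counts as the 7 genes. With the counts of the copies added to the members the mitochondrial median was again 0.15 and mt-Nd3 was at 0.24.

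The factors that build the complexes had a median near 0, with more of them above than below it. All 52 assembly factors found in the table were tested, with a median log2 fold change of 0.024. Of these 35 were above and 17 below 0, beside 6713 above and 6228 below over all genes tested. At an unadjusted p under 0.05, 0 were higher and 0 lower, beside 4.02% and 2.44% of all genes. The groups did not overlap for 3 factors that were higher and 1 that was lower, beside 6.69% and 6.22% of all genes. Cox17, the copper chaperone of complex IV, had 37.52, 45.04 and 40.15 CPM with NR4A1 and 45.84, 48.22 and 48.32 CPM with vector. Its groups did not overlap, with a log2 fold change of -0.21 (-0.43 to 0.003). Tmem70, an assembly factor of ATP synthase, had 32.6, 30.9 and 32.2 CPM against 28.6, 13.4 and 26.9 CPM, where vector replicate 2 was low, and a log2 fold change of 0.48 (-0.13 to 1.08). Over 11 electron carriers and enzymes of ubiquinone synthesis the median was 0.002, Cycs, cytochrome c, having the highest value of 0.29 (-0.20 to 0.78).

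Of 15 genes for mitochondrial DNA maintenance and transcription, 1 was higher at an unadjusted p under 0.05, beside 4.02% of all genes, and the median log2 fold change was -0.009. This was Tfb1m, which methylates mitochondrial ribosomal RNA, with 10.9, 11.4 and 11.2 CPM with NR4A1 and 9.09, 9.55 and 8.72 CPM with vector. The groups did not overlap, the log2 fold change being 0.29 with a standard error of 0.118 and an adjusted p of 0.744 in edgeR's quasi-likelihood test. Tfam, which packages mitochondrial DNA and starts its transcription, lay the other way, with 90.1, 73.9 and 79.3 CPM against 92.6, 98.5 and 91.8 CPM. Its groups did not overlap either, and the estimate was -0.22 on the log2 scale with a standard error of 0.0947 and an adjusted p of 0.784 in the same edgeR test.

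Of 11 regulators of these genes 9 were tested, and Perm1 alone passed the adjusted threshold, beside 0.24% of all genes. Perm1 passed the count filter only through the NR4A1 libraries, the group in which it was high. Perm1 (ENSMUSG00000078486, chromosome 4 from 156215868 to 156221307), a factor induced by PGC-1 and estrogen-related receptors in muscle, was counted 35, 31 and 30 times with NR4A1 and 2, 0 and 2 times with vector. In CPM the ratio of the groups was 25.4 (exact 95% interval 9.6 to 95, counting error only), and the adjusted p was 0.0428 in edgeR's quasi-likelihood test. The adjusted p rose to 0.153 with the replicate number as a block (0.18 with GC-binned offsets as well), to 0.0944 without a count filter, and to between 0.0946 and 0.172 when any library other than NR4A1 replicate 2 was left out (0.0474 without that one). The study names Perm1 from these same libraries, so its call here is not independent evidence, and the RT-qPCR that the study ran for it is not analysed here. Ppargc1a, which encodes PGC-1 alpha, had 14.7, 10.3 and 10.1 CPM with NR4A1 and 11.2, 8.47 and 11.4 CPM with vector, groups that overlapped, and a log2 fold change of 0.17 (-0.30 to 0.64). Esrra, Nrf1, Gabpa and Yy1 lay at 0.12, -0.05, 0.001 and -0.006. Esrrb had 0 counts and Esrrg at most 5 in any library, and neither was tested.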

How the data were processed

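RNA was sequenced from 3 MLE-12 cultures with the NR4A1 plasmid and 3 with empty vector, grouped by the treatment in the labels; whether same-group cultures were independent is not stated, so p-values measure the spread between these libraries. The authors deposited 1 table with read counts and FPKM per gene and library. Per the submitters' processing notes, HISAT2 2.0.4 and GRCm38.p4 were used; the counting program and annotation are not given in the sources used here. The study names a stranded total RNA kit and the labels an mRNA isolation step, and neither a strand setting nor the treatment of reads with several matches is stated, so reads of overlapping or near-identical genes cannot be told apart. The deposited FPKM values equal counts scaled by library total and a fixed gene length, with a largest deviation of 0.00176% checked over genes with over 50 counts.

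From the counts, edgeR 4.0.16 (R 4.3.3) gave TMM factors, filterByExpr, and its quasi-likelihood test over 12941 genes, with p-values adjusted after Benjamini and Hochberg. Each standard error is the absolute log2 fold change divided by the square root of F. Shared sequence was counted in 50-base stretches of GENCODE M21 transcripts, for the transcript of each gene that shares most. Of the 93 members, 69 have identical coordinates there. GC content was that of the longest transcript (99.6% of tested genes). Further fits used DESeq2 1.42.0, limma-voom and limma 3.58.1 on log2(FPKM + 1), other scalings, other filters, the replicate block and each library left out. Fits with GC-binned offsets, alone and with the block, and with counts of copies added were chosen after the data had been seen.

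The members and gene lists were chosen with earlier results of these data known. Named were all mitochondrial members, any called member, per complex the 2 nuclear members with the smallest p and those with the highest and lowest FPKM, isoforms, members near the count limit, members with shared sequence, and 2 to 4 genes of each other list. Ndufs1 and Sdha were added after their values were seen. Ribosomal RNA of mitochondria (mt-Rnr1, mt-Rnr2) was not analysed here.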

Additional observations from a re-analysis of the deposited data

How the results depend on the processing

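No member was called under any of the 18 alternatives, including each library left out in turn, where 0 was both the lowest and highest count. The same fits called few genes of any kind, from 3 of 12941 without NR4A1 replicate 3 to 146 with DESeq2. With the replicate block 5 genes were called, and with 1 library left out 3 to 37. A count of 0 among 93 members therefore says little about the members. The nuclear median stayed within its spread between libraries (0.131) under every alternative, from -0.063 to 0.085 with 1 library left out. The mitochondrial median lay between 0.068 and 0.215 with 1 library left out and between 0.124 and 0.154 under the other fits chosen at the outset. It moved by more than its spread (0.103) with GC-binned offsets, to 0.0459, and with these together with the replicate block, to 0.0458. The difference in the percent of counts on mitochondrial members lay between 0.228 and 0.539 percentage points with 1 library left out, and was 0.523 as a percent of the TMM-scaled library. The alternative without mt-Rnr1 and mt-Rnr2 in the total was not run, because the totals used here do not include them. Of 756 recomputed fold changes of 42 named genes, 24 moved by more than 1 standard error and 8, all of Perm1, lost the call. Same-numbered libraries had correlations of -0.011, -0.046 and 0.246 of their deviations, so the numbers were not taken to pair them. With the replicate block, the lowest adjusted p of a member was 0.432, and the medians were 0.003 (nuclear) and 0.145 (mitochondrial). The median standard error of a member was 0.12 on the log2 scale, and for 12 of the 93 members the interval reached a log2 fold change of 0.5 or -0.5.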
